A study of Ocimum americanum with 4 samples.

Results

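Aquaporins were taken from the assembled leaf transcriptome of O. americanum var. pilosum, a basil, as the unigenes whose best Swiss-Prot match has the word aquaporin in its description. Of 42816 unigenes, 38 met this rule. By the name of the match, 10 belong to the PIP1 group, 7 to the PIP2 group, 10 to the TIP subfamily, 8 to the NIP subfamily and 3 to the SIP subfamily. The libraries came from leaves of 30-day-old plants of the same variety. Chilling plants (chilling_rep1 and chilling_rep2) had spent 12 h in a chamber at 4 °C, and control plants (control_rep1 and control_rep2) were left untreated, at the growth temperature of 21 °C that the labels give. Per the study's methods, which give a slightly higher control temperature than the labels, control plants differed from chilled ones only in temperature, and the replicates were collected together. The number of plants behind a library and the clock hour of each collection are not given in the sources used here. Replicates are described as biological. The p-values rest on the spread between these 2 libraries per group, which limma moderates with that of all tested unigenes.

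Aquaporins are membrane channels through which water, and for some of them small uncharged solutes such as ammonia, urea, glycerol, boric acid or hydrogen peroxide, passes down its gradient. In plants they are grouped by sequence and membrane. PIPs (plasma membrane intrinsic proteins) carry much of the water that crosses the cell surface, and in maize PIP1 proteins need a PIP2 partner to leave the endoplasmic reticulum. TIPs (tonoplast intrinsic proteins) lie in the membrane of the vacuole, NIPs (nodulin 26-like intrinsic proteins) include channels for boric and silicic acid, and SIPs (small basic intrinsic proteins) were found in the endoplasmic reticulum of Arabidopsis. In leaves, aquaporins of the vascular bundles and the mesophyll contribute to the hydraulic conductance of the tissue.

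Levels are FPKM, fragments per kilobase of unigene scaled to the mapped fragments of the library, which the authors deposited for each library. A unigene was tested when its mean FPKM over the 4 libraries was at least 1. A call of higher or lower needed an adjusted p from limma of 0.01 or less and a 2-fold difference in mean FPKM. Log2 changes are the fitted chilling level less the control level, taken on log2(FPKM + 1), which understates the change of low unigenes. FPKM summed to 773457 and 772255 in the chilling libraries, against 875599 and 874864 in the control libraries. Rescaling each library to the same total (TPM) therefore raises every log2 ratio of chilling over control by 0.18, and where a ratio near 1 is printed below it is given on both scales. The summed FPKM of 31 leaf marker unigenes (light harvesting proteins, Rubisco activase and small chain, carbonic anhydrase) was 17882 and 17855 in the chilling libraries, against 50173 and 50002 in the control libraries. A call of lower was given to 22 of 30 tested ones (73.3%), beside 13.8% of all tested unigenes. The most abundant, the Rubisco small chain (Ob_31465), was not called, with 10256 and 10265 FPKM in the chilling libraries, against 13829 and 13824 FPKM in the control libraries. How far this shift of leaf markers moved the aquaporin values was not tested.

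Of the 38 aquaporins, 35 passed the filter on low values, and 16 of these (45.7%) passed both limits. Of them, 7 were higher and 9 lower in the chilling libraries. Among the 33036 unigenes tested in all, the share called was 25.6%, with 11.9% higher and 13.8% lower. As TPM the counts were 9 higher and 8 lower, against 15.3% higher and 11.1% lower over all tested unigenes. Every chilling library lay above every control library for 13 tested aquaporins and below for 18, against 41.7% and 40.3% of all tested unigenes. The groups thus did not overlap in 31 of 35 (88.6%), against 82.0% of all tested unigenes. The change exceeded the gap between replicates in both groups for 30 of 35 (85.7%), against 75.8% of all tested unigenes. The median log2 change of the tested aquaporins was -0.25, against -0.0043 for all tested unigenes, and their changes ran between -3.13 and 2.06. The median size of the change, whatever its sign, was 0.90 for aquaporins and 0.53 for all tested unigenes. In bulk leaf RNA, fewer cells of a type and less RNA per cell cannot be told apart.

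**Figure D1:**
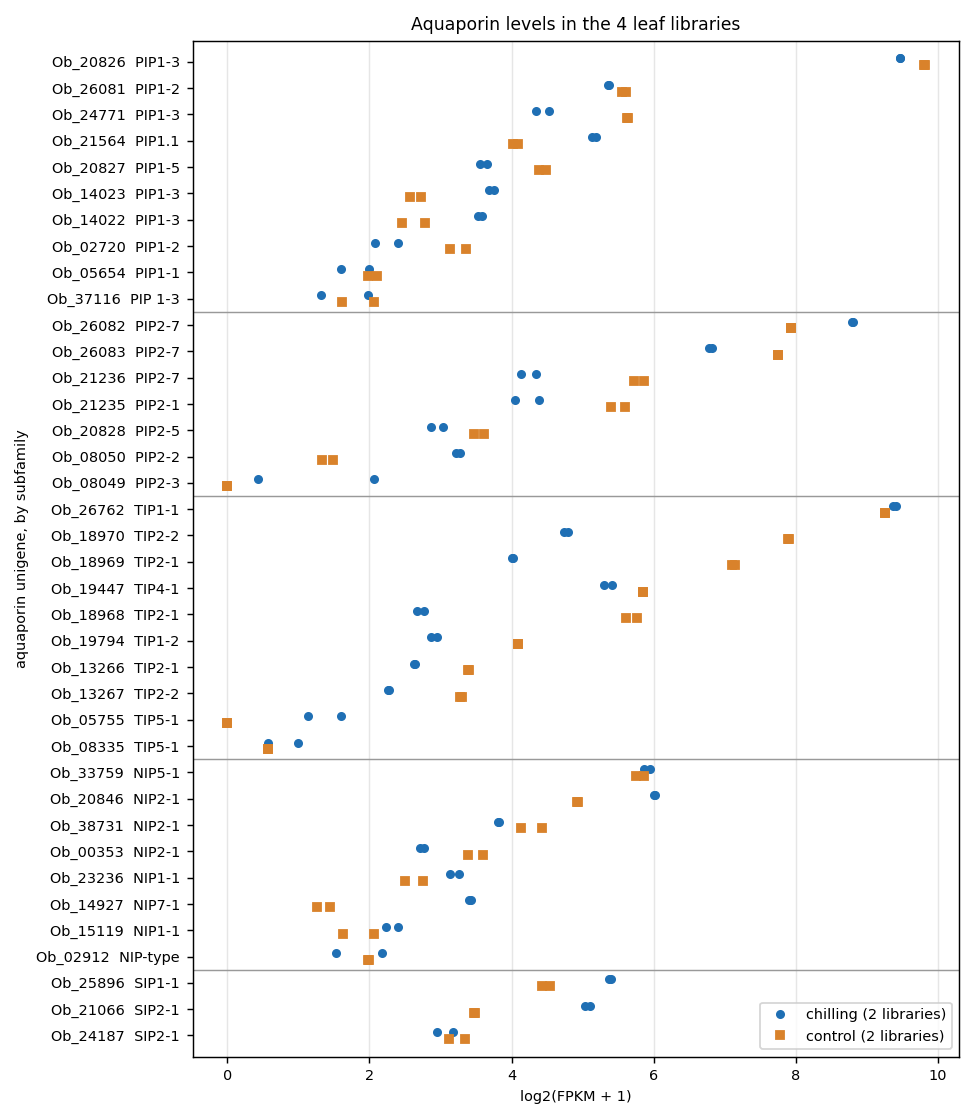
Level of the 38 aquaporin unigenes as log2(FPKM + 1) in each library, by subfamily (blue circles, chilling libraries; orange squares, control libraries; 2 each). Replicates lie close together for most unigenes, less so for low ones such as Ob_08049 and Ob_02912, and among the tested unigenes the TIP2 unigenes Ob_18970, Ob_18969 and Ob_18968 have the widest gaps between chilling and control.

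A small number of unigenes held most of the aquaporin signal. The order of levels began alike under both treatments, with a PIP1-3, a TIP1-1 and a PIP2-7 unigene. The 4 most abundant over all libraries, Ob_20826, Ob_26762, Ob_26082 and Ob_26083, held 78.1% of the summed aquaporin FPKM in the chilling libraries and 67.4% in the control libraries. At the other end, 18 of the 38 had a mean FPKM under 10, and 6 of the 16 called aquaporins were among these. All aquaporins together reached 2464 and 2488 FPKM in the chilling libraries, against 2929 and 2912 FPKM in the control libraries, a ratio of 0.848 (0.960 as TPM).

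The highest of all was Ob_20826, a PIP1-3 unigene and the 74th of all 42816 unigenes by mean FPKM. It had 707 and 708 FPKM in the chilling libraries, against 898 and 900 FPKM in the control libraries. Both chilling values lay below both control values, at a ratio of 0.787 (0.891 as TPM), and the unigene was not called because the ratio is far from 2-fold (log2 change -0.35, adjusted p = 9.74e-07 from limma). Second in both groups was Ob_26762, a match to TIP1-1, the main tonoplast aquaporin of vegetative tissue in Arabidopsis. Its level was 664 and 679 FPKM in the chilling libraries, against 612 and 611 FPKM in the control libraries, at a ratio of 1.10 (1.24 as TPM). The chilling values lay above the control values and the unigene was not called (log2 change 0.13, adjusted p = 3.41e-04 from limma). The means of these 2 unigenes were 707 ± 0.693 and 671 ± 10.8 FPKM in the chilling libraries, and 899 ± 1.62 and 611 ± 0.431 FPKM in the control libraries (SD, n = 2), so they lay apart by more than the replicate spread in both groups.

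The largest decreases among the tested aquaporins were those of TIP2 unigenes. TIP2 proteins of Arabidopsis and wheat pass ammonia as well as water into the vacuole. Ob_18970, a match to TIP2-2 of rice, had 26.8 and 25.7 FPKM in the chilling libraries, against 238 and 238 FPKM in the control libraries. The chilling libraries thus stood at a ratio of 0.110, with a log2 change of -3.13 ± 0.03 (SE, adjusted p = 1.03e-08 from limma), at place 171 from the lowest change of 33036 tested unigenes. It was the 12th most abundant aquaporin in the chilling libraries and the fourth in the control libraries.

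Ob_18969, a match to TIP2-1 of Arabidopsis, had 15.0 and 15.3 FPKM in the chilling libraries, against 141 and 136 FPKM in the control libraries. It fell by 3.11 on the log2 scale, with no overlap between the groups. Ob_18968, also a TIP2-1 match, had 5.39 and 5.82 FPKM in the chilling libraries, against 53.3 and 47.7 FPKM in the control libraries, and fell by 2.96 on the log2 scale. These 3 unigenes carry consecutive numbers in the assembly. Their relation to each other hardly moved, since Ob_18970 held between 55.0% and 56.7% of their sum in each of the 4 libraries. Their sum was 47.2 and 46.8 FPKM in the chilling libraries, against 432 and 421 FPKM in the control libraries. Whether they are parts of 1 transcript cannot be seen in the files, and they may share reads.

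A further pair of neighbouring TIP2 unigenes had lower levels in all libraries. Ob_13267, a TIP2-2 match, had 3.83 and 3.77 FPKM in the chilling libraries, against 8.67 and 8.88 FPKM in the control libraries, and was called lower (log2 change -1.03). Its call was lost when any of the 4 libraries was left out, with adjusted p between 0.0112 and 0.0126 from limma. Ob_13266, a TIP2-1 match, had 5.23 and 5.15 FPKM in the chilling libraries, against 9.60 and 9.43 FPKM in the control libraries, a ratio of 0.545 that does not reach 2-fold. Fitted as a sum, the pair was called lower (ratio 0.492, log2 change -0.95, adjusted p = 6.02e-05 from limma). The 5 TIP2 unigenes summed to 56.2 and 55.8 FPKM in the chilling libraries, against 450 and 440 FPKM in the control libraries. They made up 2.28% and 2.24% of the aquaporin FPKM in the chilling libraries, against 15.4% and 15.1% in the control libraries.

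Of the other TIP unigenes, only Ob_19794, a TIP1-2 match, was called. It had 6.29 and 6.72 FPKM in the chilling libraries, against 16.0 and 16.0 FPKM in the control libraries, with a log2 change of -1.18 (adjusted p = 4.51e-05 from limma). Ob_19447, a match to TIP4-1, was lower without reaching 2-fold, with 38.5 and 41.5 FPKM in the chilling libraries, against 56.7 and 56.6 FPKM in the control libraries. The 2 matches to TIP5-1, a channel known from Arabidopsis pollen, were below the filter. Ob_05755 had 2.02 and 1.20 FPKM in the chilling libraries and stands at 0 in each control library. Ob_08335 had 1.00 and 0.49 FPKM in the chilling libraries, against 0.49 and 0.48 FPKM in the control libraries. In all, limma called 5 of the 8 TIP unigenes it tested lower (62.5%, beside 13.8% of all tested unigenes) and 0 higher. Only Ob_26762 had a positive change, which was also the only one higher at an unadjusted p of 0.05. With neighbours summed, the lower TIP calls were those of the Ob_18968 to Ob_18970 sum, the Ob_13266 and Ob_13267 sum, and Ob_19794. Without the TIP2 unigenes, the TIP sum was 711 and 729 FPKM in the chilling libraries, against 685 and 684 FPKM in the control libraries, a ratio of 1.05 (1.19 as TPM).

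**Figure D2:**
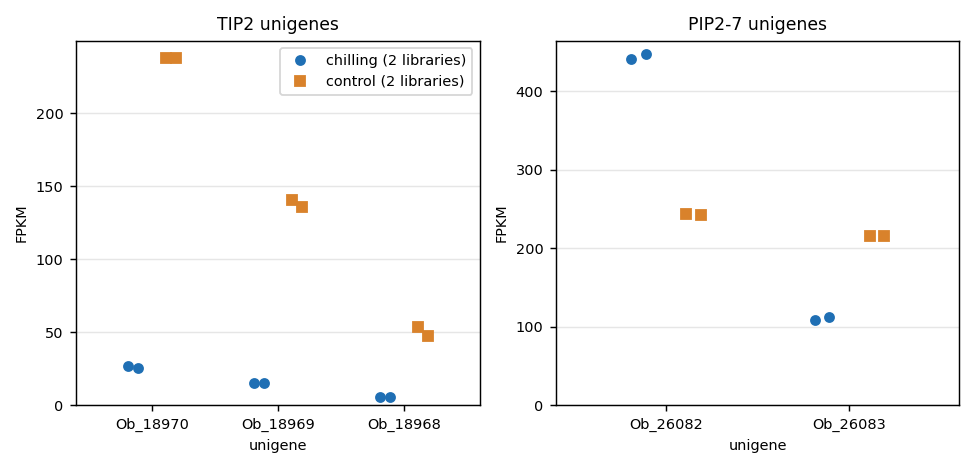
FPKM in each library of the consecutive TIP2 unigenes Ob_18970, Ob_18969 and Ob_18968 (left) and of the consecutive PIP2-7 unigenes Ob_26082 and Ob_26083 (right); blue circles are the 2 chilling libraries and orange squares the 2 control libraries. The TIP2 unigenes are lower after chilling by a similar factor, whereas the PIP2-7 unigenes have opposite changes.

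PIP2 unigenes were called in both directions. A pair with consecutive numbers, both matching PIP2-7 of Arabidopsis with expectation values of 2e-177 and 9e-179, had opposite changes. Ob_26082 had 442 and 447 FPKM in the chilling libraries, against 243 and 243 FPKM in the control libraries, a ratio of 1.83 (2.07 as TPM, where it was called higher). Ob_26083 had 109 and 112 FPKM in the chilling libraries, against 215 and 215 FPKM in the control libraries, a ratio of 0.512 (0.580 as TPM). Neither reached 2-fold in FPKM, and both differed far beyond the replicate gap (log2 changes 0.87 ± 0.02 and -0.96 ± 0.02, SE, adjusted p = 9.56e-08 and 3.63e-07 from limma). Ob_26082 had 4.07 and 4.00 times the level of Ob_26083 in the chilling libraries, against 1.13 and 1.13 times in the control libraries. Their sum was 550 and 559 FPKM in the chilling libraries, against 458 and 458 FPKM in the control libraries, and the locus they form was not called when fitted as a sum (log2 change 0.27). How RSEM shared reads between them cannot be seen in the files.

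Ob_21235 and Ob_21236 form another pair of neighbours and were both called lower. Ob_21236, a match to PIP2-7 of maize, had 19.3 and 16.5 FPKM in the chilling libraries, against 57.3 and 51.7 FPKM in the control libraries (log2 change -1.56). Ob_21235, a match to PIP2-1 of maize, had 15.6 and 19.8 FPKM in the chilling libraries, against 47.5 and 41.3 FPKM in the control libraries (log2 change -1.29). Chilling and control libraries did not overlap for either unigene. The call of Ob_21235 was lost without control replicate 1 or control replicate 2, at adjusted p of 0.0168 and 0.0129 from limma.

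Ob_08050 rose the most among the PIP unigenes. It matches PIP2-2 of Arabidopsis, a plasma membrane water channel that contributes to water uptake by roots, and had 8.32 and 8.71 FPKM in the chilling libraries, against 1.79 and 1.51 FPKM in the control libraries. That is a ratio of 5.16 and a log2 change of 1.85 ± 0.14 (SE, adjusted p = 5.45e-05 from limma). Its neighbour Ob_08049, a PIP2-3 match below the filter, had 3.20 and 0.35 FPKM in the chilling libraries and is listed at 0 for the control in each replicate. Ob_20828, a PIP2-5 match, had 6.28 and 7.17 FPKM in the chilling libraries, against 10.1 and 11.2 FPKM in the control libraries, and did not reach 2-fold. Of 6 tested PIP2 unigenes, 1 was called higher and 2 lower. Their summed level with Ob_08049 was 603 and 612 FPKM in the chilling libraries, against 575 and 564 FPKM in the control libraries, a ratio of 1.07 (1.21 as TPM).

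Of the 10 PIP1 unigenes, all tested, 3 were called higher and 2 lower. The lower ones were Ob_24771 and Ob_02720. Ob_24771, a PIP1-3 match, had 22.2 and 19.3 FPKM in the chilling libraries, against 48.7 and 48.4 FPKM in the control libraries (log2 change -1.19, adjusted p = 1.58e-05 from limma). Ob_02720, a match to PIP1-2 of rice, had 4.28 and 3.24 FPKM in the chilling libraries, against 7.77 and 9.22 FPKM in the control libraries (ratio 0.443). This call was lost without any 1 of the libraries, at adjusted p between 0.0147 and 0.0411 from limma, and as TPM, where the ratio was 0.501. Ob_20827, a PIP1-5 match next in number to Ob_20826, came near the 2-fold limit with 11.6 and 10.8 FPKM in the chilling libraries, against 19.9 and 21.4 FPKM in the control libraries (ratio 0.543). Ob_26081, a PIP1-2 match, had 40.4 and 40.2 FPKM in the chilling libraries, against 47.7 and 46.1 FPKM in the control libraries, a ratio of 0.859 (0.973 as TPM). The rice matches Ob_05654 and Ob_37116 stayed below the mark of 10 FPKM in every library, and their groups overlapped.

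The neighbours Ob_14022 and Ob_14023, both PIP1-3 matches, were called higher. Ob_14023 had 12.4 and 11.9 FPKM in the chilling libraries, against 5.63 and 4.95 FPKM in the control libraries (log2 change 1.06). Ob_14022 had 11.0 and 10.5 FPKM in the chilling libraries, against 5.89 and 4.50 FPKM in the control libraries (log2 change 0.93). The ratios of 2.29 and 2.06 lie just above the 2-fold limit. Without chilling replicate 1 both calls were lost (adjusted p = 0.0139 and 0.0357 from limma), likewise without chilling replicate 2 (0.0128 and 0.0319), and without control replicate 2 that of Ob_14022 (adjusted p = 0.0131).

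The remaining PIP1 unigene called higher was Ob_21564, whose place in the group rests on its Swiss-Prot name alone. It matches PIP1.1 of broad bean at an expectation value of 4e-26, its best nr match is an X intrinsic protein (XIP) of tobacco, and it was the only 1 of 22 aquaporins with a KEGG orthology number whose number is not that of its subfamily. XIPs form a plant subfamily that Arabidopsis and the grasses lack. Ob_21564 had 35.4 and 34.2 FPKM in the chilling libraries, against 16.1 and 15.2 FPKM in the control libraries, a log2 change of 1.10 (adjusted p = 1.08e-05 from limma). With it, the PIP1 sum was 848 and 844 FPKM in the chilling libraries, against 1055 and 1056 FPKM in the control libraries, a ratio of 0.801 (0.907 as TPM), most of it from Ob_20826. PIP1 and PIP2 unigenes together had a ratio of 0.894, which lies on the other side of 1 as TPM, at 1.01.

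**Figure D3:**
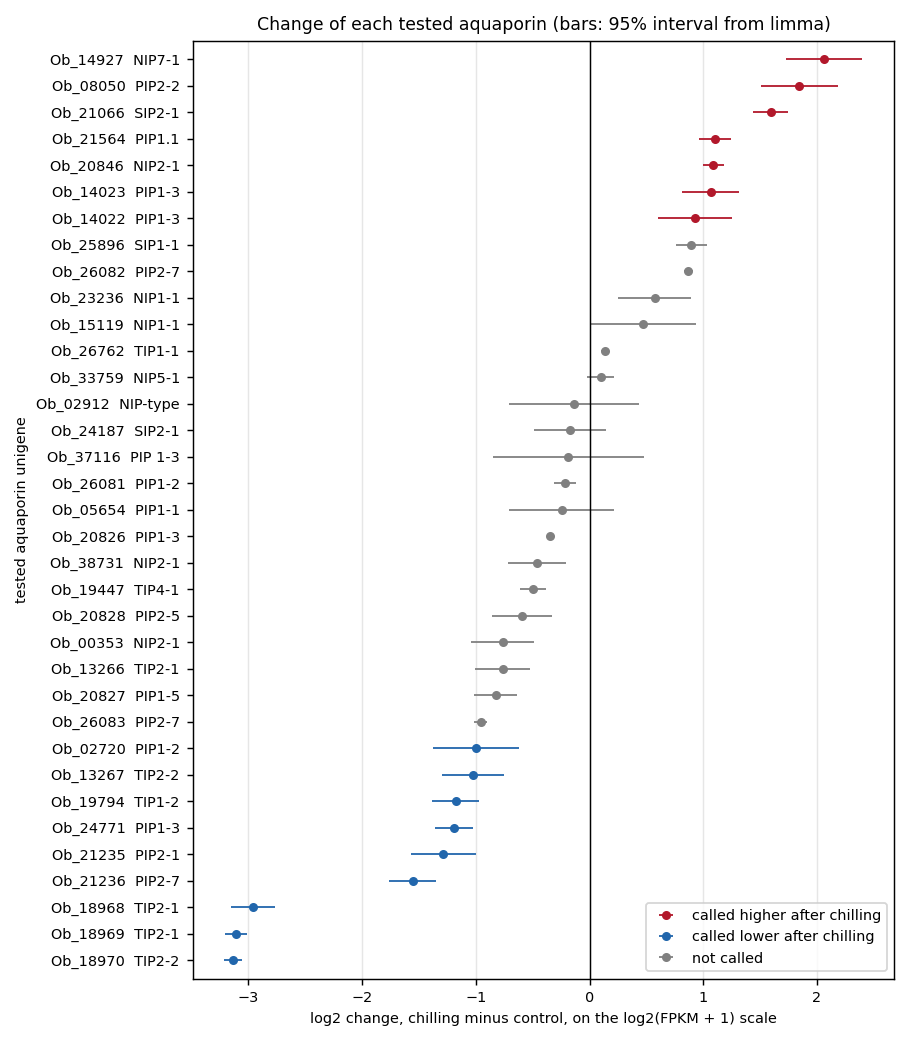
Log2 change (chilling minus control, as log2(FPKM + 1)) of the 35 tested aquaporins, sorted, with the 95% interval from limma; red marks unigenes called higher after chilling, blue those called lower and grey those not called. The changes run between -3.13 for Ob_18970 (TIP2-2) and 2.06 for Ob_14927 (NIP7-1).

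Of the 8 NIP unigenes, limma called 2 higher and 0 lower, a share near the 25.6% called among all tested unigenes. The 2 that were lower at an unadjusted p of 0.05, Ob_00353 and Ob_38731, also had an adjusted p under 0.01 (0.00137 and 0.00855 from limma) and missed only the 2-fold limit. Ob_14927 had the largest increase of any aquaporin, with 9.82 and 9.56 FPKM in the chilling libraries, against 1.40 and 1.72 FPKM in the control libraries. The chilling libraries stood at a ratio of 6.21, with a log2 change of 2.06 ± 0.14 (SE, adjusted p = 3.14e-05 from limma). Its match is NIP7-1, a boric acid channel of developing anthers in Arabidopsis. Ob_20846, a match to NIP2-1, the silicic acid channel of rice roots, had 63.9 and 63.1 FPKM in the chilling libraries, against 29.2 and 29.5 FPKM in the control libraries (log2 change 1.09, adjusted p = 1.71e-06 from limma). It was the fifth most abundant aquaporin in the chilling libraries and the 14th in the control libraries.

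Ob_33759, a match to NIP5-1, a boric acid channel of Arabidopsis roots, held the top place among NIPs in the control libraries. It had 57.4 and 60.6 FPKM in the chilling libraries, against 53.0 and 57.1 FPKM in the control libraries, a ratio of 1.07 (1.21 as TPM). It was not called on either scale, but the test of the difference turned on the scaling. The adjusted p from limma was 0.127 as FPKM (95% interval of the log2 change -0.022 to 0.22) and 0.00345 as TPM (log2 change 0.28). The 2 NIP1-1 matches, Ob_23236 and Ob_15119, had positive changes of 0.57 and 0.47 and were not called. Ob_00353 and Ob_38731, both NIP2-1 matches, had negative changes of -0.76 and -0.47. Ob_02912, named NIP-type, had 3.51 and 1.88 FPKM in the chilling libraries, against 2.98 and 2.93 FPKM in the control libraries, which overlap. The NIP sum was 166 and 165 FPKM in the chilling libraries, against 123 and 128 FPKM in the control libraries, a ratio of 1.32.

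Of the 3 SIP unigenes, 1 was called (33.3%, beside 25.6% of all tested unigenes). Ob_21066, a SIP2-1 match, had 31.9 and 33.3 FPKM in the chilling libraries, against 10.04 and 10.24 FPKM in the control libraries, with a log2 change of 1.59 ± 0.06 (SE, adjusted p = 2.62e-06 from limma). Ob_25896, a SIP1-1 match, had 40.3 and 41.3 FPKM in the chilling libraries, against 22.4 and 20.6 FPKM in the control libraries. Its ratio of 1.90 was just short of 2-fold and was called as TPM, at 2.15. The other SIP2-1 match, Ob_24187, had 6.70 and 8.05 FPKM in the chilling libraries, against 7.72 and 9.16 FPKM in the control libraries, so the groups overlapped. The SIP sum was 79.0 and 82.7 FPKM in the chilling libraries, against 40.1 and 40.0 FPKM in the control libraries, a ratio of 2.02. Sums were compared by an exact permutation test, which with 2 libraries per group cannot give a p below 0.33, and each of the sums given above had this value.

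**Figure D4:**
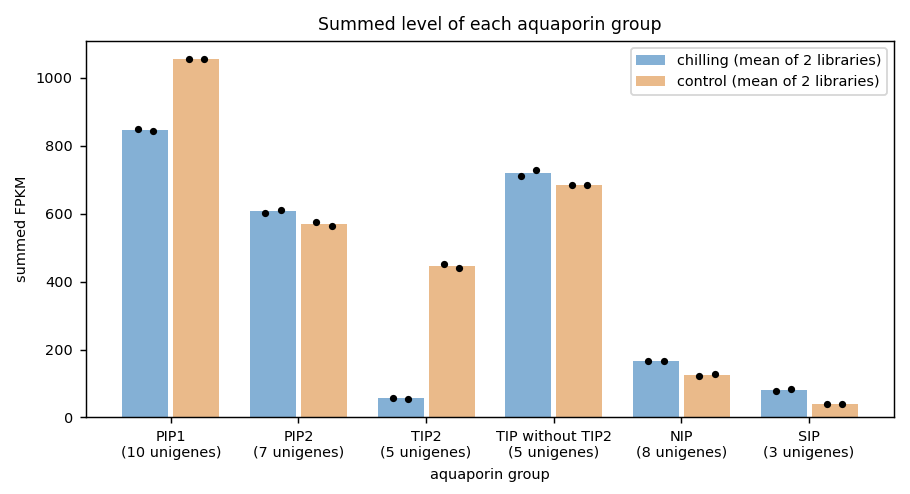
Summed FPKM of each aquaporin group, with bars for the mean of 2 libraries and points for the libraries (blue, chilling; orange, control). The TIP2 sum is far lower in the chilling libraries (56.2 and 55.8 FPKM) than in the control libraries (450 and 440 FPKM), and the SIP sum is about 2-fold higher.

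Several features that the rule did not use were tabulated for the members. Of the 38, 17 have another aquaporin at a neighbouring unigene number, in 10 consecutive pairs. Summing neighbours of the same subfamily left 30 loci, of which 28 were tested, 6 called higher and 6 lower (42.9% called). The pair Ob_26082 and Ob_26083 was the only one of those pairs joined into a locus with both unigenes tested whose members differed in sign. A best nr match in a grass was found for 5 aquaporins, all with a negative log2 change and 1 of them, Ob_02720, called. Their median log2 change was -0.47, beside -0.48 for all 2021 tested unigenes with such a match.

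Gene ontology terms were attached to 27 aquaporins, 23 of them with water channel activity. The term for response to cold stands on 7. Of these, Ob_08050 was called higher, Ob_19794, Ob_21235 and Ob_21236 were called lower, Ob_20828 and Ob_26082 were not called and Ob_08049 was not tested. Over all tested unigenes with this term, 114 of 399 were called. The term for response to water deprivation stands on 15 aquaporins, of which 3 were called higher, 4 lower, 7 were not called and 1 was not tested. Over all tested unigenes, 11.9% were called higher and 13.8% lower. Among the called aquaporins with this term are the neighbours Ob_14022 and Ob_14023, and the neighbours Ob_21235 and Ob_21236. Terms were carried over from matches in other species. The match was strong (expectation value at most 1e-100) for 15 tested aquaporins, of which 5 were called, and weaker for 20, of which 11 were called.

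Proteins that move solutes alongside aquaporins were described from lists. Of 17 other transporters of ammonium, urea or boron, 14 were tested, 6 called higher and 2 lower (57.1% called, beside 25.6% of all tested unigenes, median log2 change 0.33). The higher ones were ammonium and urea transporters. Ob_06054, a match to the ammonium transporter AMT1-3, had 34.8 and 32.9 FPKM in the chilling libraries, against 4.24 and 3.12 FPKM in the control libraries (log2 change 2.91). Ob_23505, a match to AMT1-1, had 39.0 and 37.5 FPKM in the chilling libraries, against 5.64 and 5.61 FPKM in the control libraries (log2 change 2.57). A further AMT1-3 match (Ob_23820) rose by 1.92 on the log2 scale, and the urea transporter DUR3 (Ob_33437) rose by 1.23. The lower ones were AMT1-2 (Ob_25521, log2 change -1.49) and BOR2 (Ob_35695, log2 change -1.48), a boron exporter of Arabidopsis. Ob_35695, the most abundant unigene of this list, had 12.5 and 12.1 FPKM in the chilling libraries, against 35.4 and 36.9 FPKM in the control libraries.

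A list of 46 unigenes was drawn by name from protein families linked to aquaporin trafficking and regulation, such as kinases, 14-3-3 proteins, SNAREs and ubiquitin ligases. Whether each of these proteins acts on aquaporins was not tested. The list had 40 tested members, 5 called higher and 2 lower (17.5% called, beside 25.6% of all tested unigenes, median log2 change 0.25). Ob_26916, a match to SYP121, a SNARE that delivers PIP2 proteins to the plasma membrane in Arabidopsis and maize, had 27.6 and 29.1 FPKM in the chilling libraries, against 3.29 and 2.95 FPKM in the control libraries (log2 change 2.83). RMA1H1, a ubiquitin ligase of pepper that lowers the amount of PIP2-1 at the plasma membrane when expressed in Arabidopsis, was the match of 5 unigenes, of which 3 were called higher. The other 2 also had both chilling values above both control values and each missed 1 limit, Ob_23369 that of the ratio (1.97) and Ob_10148 that of the adjusted p (0.0102 from limma). Ob_20508 had the largest change of the 5, with 19.7 and 20.8 FPKM in the chilling libraries, against 4.60 and 4.13 FPKM in the control libraries (log2 change 1.99), and Ob_24527 had a log2 change of 1.34. The most abundant member, the 14-3-3 match 16R (Ob_25740), was not called, with 867 and 872 FPKM in the chilling libraries, against 674 and 672 FPKM in the control libraries. Both lower members match SAPK2, a kinase of the SnRK2 family from rice. Ob_20812 had 30.7 and 31.5 FPKM in the chilling libraries, against 75.02 and 77.37 FPKM in the control libraries (log2 change -1.27), and Ob_38690 had a log2 change of -1.19.

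Proton pumps energise the membranes in which PIPs and TIPs lie. Of 27 unigenes for plasma membrane proton ATPases, 21 were tested, 1 called higher and 2 lower (14.3% called, beside 25.6% of all tested unigenes, median log2 change 0.37). The higher one, a PMA4 match (Ob_23415), had 85.6 and 85.0 FPKM in the chilling libraries, against 36.0 and 39.1 FPKM in the control libraries. The lower ones, matches to AHA7 (Ob_16655) and AHA11 (Ob_05413), had at most 6.40 FPKM in any library. The most abundant, a PMA1 match (Ob_16449), was not called, with 174 and 179 FPKM in the chilling libraries, against 128 and 136 FPKM in the control libraries. Of 64 unigenes for vacuolar proton pumps, 62 were tested, 2 called higher and 8 lower (16.1% called, beside 25.6% of all tested unigenes, median log2 change -0.20). Both higher members, Ob_16921 (subunit A of the V-type ATPase) and Ob_30964 (a pyrophosphatase), were under 10 FPKM in every library. So were the 3 with the largest decreases, the pyrophosphatases Ob_40646, Ob_01855 and Ob_08189. The pyrophosphatase Ob_35485, also called lower (log2 change -1.07), had 43.3 and 44.3 FPKM in the chilling libraries, against 93.4 and 93.2 FPKM in the control libraries. The most abundant, the pyrophosphatase Ob_30963, was not called, with 402 and 397 FPKM in the chilling libraries, against 470 and 479 FPKM in the control libraries. The summed level of this list was 2479 and 2455 FPKM in the chilling libraries, against 2517 and 2534 FPKM in the control libraries, a ratio of 0.977 that lies on the other side of 1 as TPM, at 1.11.

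**Figure D5:**
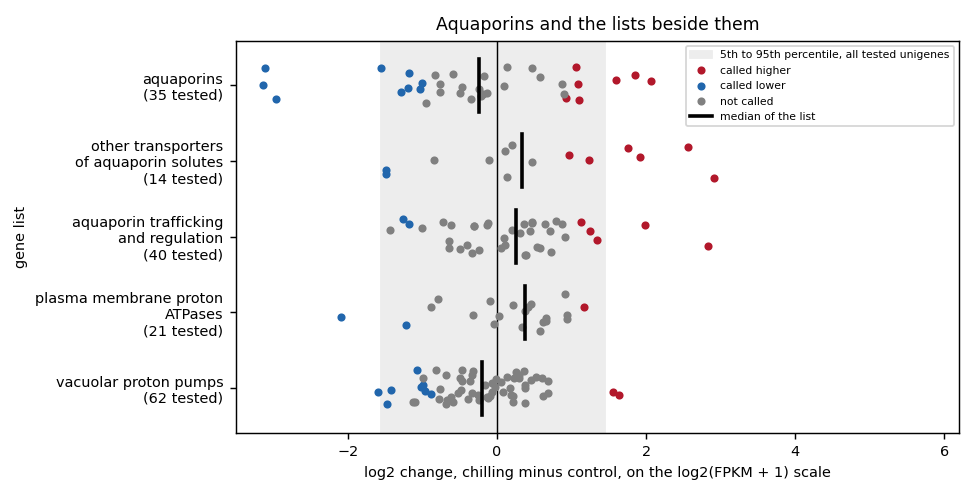
Log2 change (chilling minus control, as log2(FPKM + 1)) of each tested unigene in the aquaporin list and in 4 lists of related proteins; red, called higher; blue, called lower; grey, not called; black bar, median of the list; shading, the 5th to 95th percentile of all tested unigenes. The aquaporin median is -0.25, and the 3 consecutive TIP2 unigenes are at the far left.

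Markers of other cell types in a leaf were also read. Of 11 guard cell unigenes, 10 were tested, with 0 called higher and 5 lower (1 higher and 2 lower as TPM). Shares over all tested unigenes were 11.9% higher and 13.8% lower. The lower ones match EPF1, EPF2, KAT1 and SLAC1. Both chilling values lay above both control values for 3 tested unigenes and below for 6. Those 3 had an adjusted p under 0.01 from limma and missed only the 2-fold limit. They match FAMA (Ob_25423, ratio 1.69), KAT2 (Ob_21946, 1.69) and KAT1 (Ob_36820, 1.94). The guard cell unigenes summed to 81.2 and 79.0 FPKM in the chilling libraries, against 96.7 and 100.7 FPKM in the control libraries. The 10 vascular unigenes, all tested, had 2 higher and 3 lower calls, beside 11.9% and 13.8% of all tested unigenes. They summed to 222 and 221 FPKM in the chilling libraries, against 182 and 189 FPKM in the control libraries. Of the marker names planned, MYB60, SUC2, VASCULAR-RELATED NAC-DOMAIN, Casparian strip membrane proteins and ROOT HAIR DEFECTIVE gave no unigene in these lists. Of the root names, only SHORT-ROOT gave unigenes. These 2 had 8.55 and 8.98 FPKM in sum in the chilling libraries, against 13.1 and 12.5 FPKM in the control libraries. The part of these cell types in the aquaporin values was not tested.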

How the data were processed

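RNA was sequenced from leaves of 2 chilling-treated and 2 control samples. Per the study's methods, the authors trimmed reads below Q20, PCR duplicates and adaptors, assembled the 4 libraries together de novo with Trinity, took the longest isoform per gene as the unigene, and used RSEM for the FPKM that the authors deposited. Their annotation comes from BLASTX at an expectation value of 1e-05. Further deposited lists hold the log2 fold changes, p-values and FDR of the authors, from edgeR on counts, and were not used. In these, 8 columns of values per sample were not used either. No read counts were analysed, so how many reads a given FPKM rests on is unknown, and no count model was run.

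log2(FPKM + 1) was fitted with limma 3.58.1 in R 4.3.3, with a trend in the prior variance, over 33036 of 42816 unigenes, those whose mean FPKM reached 1, and p-values were adjusted over all of them by the Benjamini-Hochberg method. The fit had 2 residual degrees of freedom and 4.41 prior degrees of freedom. Calls needed an adjusted p of 0.01 or less and a ratio of mean FPKM of 2 or more. The procedure was tested on simulated data. Context and marker lists are word patterns on the Swiss-Prot description. The members, the lists and the rule for the names given (every called aquaporin, the most abundant of each subfamily, those listed at 0 in 1 group with a mean FPKM of at least 1, those nearest the threshold, and for context lists the most abundant unigene and the 3 most changed among those called higher and among those called lower) were chosen with earlier results of these data known. The other aquaporins, DUR3 (Ob_33437), Ob_23369, Ob_10148, Ob_35485 and the leaf and guard cell marker unigenes given by name were named in addition, after their values were seen. Python 3.11.15 with pandas 2.3.3 and numpy 2.4.6 served for the tables.

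Alternatives were a pseudocount of 0.1, no filter, a mean FPKM of at least 5, an adjusted p of 0.05, a 2-fold limit on the log2 scale, no trend, scaling to TPM or by median ratios, a block for the replicate number, leaving out grass matches and leaving out each library in turn. A minimum FPKM of 1 in each library, summing neighbouring unigenes, and leaving Ob_21564 or grass matches out of the sums were chosen after seeing the data.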

Additional observations from a re-analysis of the deposited data

How the results depend on the processing

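With 1 library left out, the lone library of its group is assumed to vary like the pair in the other. Then 5 to 7 aquaporins were called higher and 6 to 7 lower, and 12 to 13 of the 16 called aquaporins remained called. The calls lost there were those of Ob_02720, Ob_13267, Ob_14022, Ob_14023 and Ob_21235, and Ob_08049 was called higher without chilling replicate 2. Without a filter, or without the trend, 6 were called higher and 8 lower, without Ob_02720 and Ob_14022. With a 2-fold limit on the log2 scale 6 were higher and 9 lower, and without grass matches 7 and 8. The counts were 7 and 9, with all 16 kept, with a minimum FPKM of 1 in each library, a mean FPKM of at least 5, a pseudocount of 0.1, median ratio scaling, an adjusted p of 0.05 or membership by other annotation text. No called aquaporin and no single subfamily sum changed its direction under the alternatives run for it. PIP1 and PIP2 summed together did (ratio 0.894 as FPKM, 1.01 as TPM), as did the sum of vacuolar proton pumps (0.977 as FPKM, 1.11 as TPM), and as TPM more aquaporins were called higher (9) than lower (8).

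Over all unigenes, 3917 were called higher and 4548 lower. With a minimum FPKM of 1 in each library these counts were 2558 and 2986, with a mean FPKM of at least 5 they were 2035 and 2193, and with 1 library left out they were 1748 to 2425 and 2251 to 2355, each setting with fewer unigenes or samples. As TPM they were 5051 and 3677.

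Replicate numbers did not pair the samples, since the deviations of same-numbered libraries had a correlation of 0.0076 across unigenes, and with the replicate block 7 aquaporins were called higher and 9 lower, all 16 of them the same. The block left 1 lower call in the trafficking and regulation list.

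Among plasma membrane proton ATPases, 0 were called lower without a filter, 3 higher as TPM, and 1 to 3 higher and 0 to 1 lower with 1 library left out. Among vacuolar proton pumps, 1 was higher and 2 lower without a filter, 5 lower as TPM, and 0 to 1 higher and 1 to 2 lower with 1 library left out. In the trafficking and regulation list, 1 was lower without a filter, 9 higher as TPM, and 4 to 6 higher and 1 to 2 lower with 1 library left out. The cause was not tested.

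As TPM, which adds 0.18 to each, the log2 ratios of the sums were -0.14 for PIP1, 0.27 for PIP2, -0.36 for TIP, 0.58 for NIP and 1.19 for SIP, against -0.32, 0.09, -0.54, 0.40 and 1.01 as FPKM. Median ratio scaling gave -0.31 for PIP1. PIP1 gave -0.36 without Ob_21564 and -0.31 without grass matches, and NIP gave 0.60 without grass matches. The moves on rescaling to TPM exceed the spread between replicates, which is small with 2 libraries per group. Leaving grass matches out moved PIP1 by no more than the gap between its chilling libraries (848 and 844 FPKM). With 2 libraries per group and no read counts, what depth limits could not be computed, and aquaporins under 10 FPKM rest on the least signal.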
